A study of Mus musculus with 4 samples.

Results

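Expression of the insulin-like growth factor (IGF) system was examined in granulosa cells (GCs) of mouse preantral follicles. It comprised 10 genes, taken by symbol from the 55385 genes in the count table. These were the ligands Igf1 and Igf2, the receptors Igf1r and Igf2r, the binding proteins Igfbp2, Igfbp3, Igfbp4, Igfbp5 and Igfbp6, and the protease Pappa. The choice used no measured value but was made with earlier results of these data known. All 10 symbols matched 1 Ensembl identifier each. The follicles came from Kunming mice of 12 to 14 days of age and were cultured for 6 days, either in medium with neurotrophin-4 (NT-4, a ligand of the TRKB receptor) or in the same medium without it. Bulk RNA sequencing of the GCs yielded 2 NT4 libraries and 2 Control libraries. By the study's methods the medium of both groups held insulin, transferrin and follicle-stimulating hormone (FSH), the cells were what remained after the oocyte had been removed, and the samples of a group came from independent experiments. How many animals or follicles went into a library was not given in the sources used here.

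IGF1 and IGF2 are small secreted growth factors that resemble insulin. IGF1R is the tyrosine kinase through which both signal, whereas IGF2R, the cation-independent mannose 6-phosphate receptor, takes up IGF2 for degradation in lysosomes. The IGF binding proteins hold the ligands outside the cell and limit their access to IGF1R, and PAPP-A, the product of Pappa, frees IGF by cutting IGFBP4 and IGFBP5. In the mouse ovary Igf1 is made by GCs of growing follicles, IGF1 and FSH act together on GC growth and steroid synthesis, and binding proteins are often linked to follicles that stop growing.

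Library totals ran from 49520092 to 78704020 counts, which would be about 12380023 to 19676005 read pairs if 1 pair gave 4 counts. This factor was assumed, from an excess of multiples of 4 among the low counts, and every value given below in read pairs rests on it. Values are given as CPM, counts per 1000000 of the library total after TMM scaling, and a gene seen in no read could lie anywhere up to 3 read pairs, or 0.156 to 0.239 CPM by library (counting error only). All 10 GC markers, among them Foxl2, Fshr and Inha, were above 1 CPM in every library and summed to 11656 to 18597 CPM. Markers of theca and stroma summed to 1018 and 1072 CPM in Control and to 1470 and 1307 CPM in NT4. Of these 10 genes, 9 were higher in both NT4 libraries than in both Control libraries, against 13.4% of the 19259 genes tested. Oocyte markers summed to 72.8 to 104 CPM, surface epithelium to 34.1 to 43.0 CPM with Krt19 and Upk1b at 0 counts, endothelium to 26.1 to 35.6 CPM, erythroid genes to 3.23 to 5.60 CPM, and macrophage genes to 1.38 to 3.13 CPM. At least 1 CPM in every library was reached by 9 of 10 oocyte and 2 of 8 surface epithelium markers. It was also reached by 2 of 8 endothelium, 1 of 6 erythroid and 0 of 8 macrophage markers. Liver-type genes summed to 156 and 83.4 CPM in Control and to 84.9 and 89.9 CPM in NT4, with Control 1 the highest. Of these 8 genes, 5 were lower in both NT4 libraries, against 12.7% of the genes tested. In bulk RNA, fewer cells of a type and less RNA per cell cannot be told apart.

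On GRCm38, Igfbp2 (ENSMUSG00000039323, chromosome 1, 72824503 to 72852474, plus strand) and Igfbp5 (ENSMUSG00000026185, chromosome 1, 72857932 to 72874884, minus strand) are tail-to-tail neighbours with 5457 bases between them. Igfbp3 (ENSMUSG00000020427, chromosome 11, 7206086 to 7213923) has Igfbp1 next to it at a distance of 3539 bases, while Igfbp4 (ENSMUSG00000017493, 99041244 to 99054392) lies elsewhere on chromosome 11. Igfbp6 (ENSMUSG00000023046) is at 102144362 to 102149511 on chromosome 15. Igf1 (ENSMUSG00000020053, 8 annotated transcripts) occupies chromosome 10 from 87858265 to 87937042. Igf2 (ENSMUSG00000048583, chromosome 7, 142650766 to 142666816) and Igf1r (ENSMUSG00000005533, chromosome 7, 67952827 to 68233668) share a chromosome. Igf2r (ENSMUSG00000023830) is at 12682406 to 12769664 on chromosome 17 and Pappa (ENSMUSG00000028370) at 65124174 to 65357509 on chromosome 4. Of the 10 genes, Igf2 alone has exons that overlap other annotated genes. Igf2os covers 98 bases on the opposite strand and had 0 counts, and Gm49394 covers 62.8% of its exon bases on the same strand, so reads could have been divided between these genes.

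Upstream sequences are shown for Igfbp3 and Igfbp6, the members that were higher in both NT4 libraries, and for Igfbp2 and Igfbp4 as members whose groups overlapped. Each is the 250 bases before a RefSeq transcript start (GRCm38.p6), written in the direction of the gene. The windows lie at chr1:72824230-72824479 (plus strand, Igfbp2), chr11:7213924-7214173 (minus strand, Igfbp3), chr11:99040994-99041243 (plus strand, Igfbp4) and chr15:102143936-102144185 (plus strand, Igfbp6). Capitals mark matches, on either strand, to the motif TATAAA, the core of the TATA box, or to GGGCGG, to which SP1 family factors bind.
Igfbp2: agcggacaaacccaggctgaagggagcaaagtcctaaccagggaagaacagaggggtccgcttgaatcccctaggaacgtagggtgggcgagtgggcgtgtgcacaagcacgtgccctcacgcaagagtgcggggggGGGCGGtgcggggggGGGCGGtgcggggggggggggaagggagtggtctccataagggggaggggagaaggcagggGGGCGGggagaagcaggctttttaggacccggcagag
Igfbp3: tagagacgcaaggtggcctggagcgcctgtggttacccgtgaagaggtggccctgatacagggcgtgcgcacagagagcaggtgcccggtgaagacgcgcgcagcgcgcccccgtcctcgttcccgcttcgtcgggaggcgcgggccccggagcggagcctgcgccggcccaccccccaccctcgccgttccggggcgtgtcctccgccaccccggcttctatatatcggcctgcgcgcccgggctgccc
Igfbp4: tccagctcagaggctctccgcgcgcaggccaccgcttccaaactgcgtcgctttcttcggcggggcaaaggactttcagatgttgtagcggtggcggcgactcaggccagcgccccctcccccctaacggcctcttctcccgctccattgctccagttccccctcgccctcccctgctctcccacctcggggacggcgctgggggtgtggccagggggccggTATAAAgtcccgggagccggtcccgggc
Igfbp6: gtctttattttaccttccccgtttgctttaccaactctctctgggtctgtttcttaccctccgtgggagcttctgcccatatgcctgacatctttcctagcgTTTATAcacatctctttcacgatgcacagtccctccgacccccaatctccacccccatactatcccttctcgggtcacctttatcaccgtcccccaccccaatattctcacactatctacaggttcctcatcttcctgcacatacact
The Igfbp2 window shown held 3 matches to GGGCGG, the nearest beginning 37 bases before the start. A second Igfbp2 window, chr1:72825137-72825386, overlaps an exon of the gene and is not shown. It held neither motif. Igfbp4 held TATAAA beginning 28 bases before the start. The match in Igfbp6 was TTTATA, the reverse complement, at 148 bases, and Igfbp3 held no exact match to either motif. Only exact matches were sought, so the similar stretch tatatat near the end of the Igfbp3 window was not marked. Among 32851 windows of this length, TATAAA occurred in 12.4% and GGGCGG in 32.7%. The dinucleotide CG occurred 14 times in the Igfbp2 window shown, 32 in Igfbp3, 22 in Igfbp4 and 7 in Igfbp6. The second Igfbp2 window held 11, and the median over all windows was 6. RefSeq windows were matched for 9 of the 10 genes.

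Levels were first compared between members, as CPM per kb of merged exons. Igf1 had the highest mean level per kb, 27.2 ± 4.56 (SD over the 4 libraries), followed by Igfbp2 at 25.7 ± 3.51 and Igfbp5 at 21.1 ± 1.98. Igf2r stood at 17.0 ± 1.63 CPM per kb, Igf1r at 13.2 ± 2.46 and Igfbp6 at 13.1 ± 2.51. These 6 genes formed a chain in which each range of levels overlapped that of the next. Within libraries, Igf1 exceeded Igfbp2 in 3 of 4 only, while Igfbp2 exceeded Igfbp5, and Igfbp5 exceeded Igf2r, in 4 of 4. Igf2r exceeded Igf1r in 3 of 4 libraries and Igf1r exceeded Igfbp6 in 2 of 4. Igfbp4 (6.25 ± 1.79 CPM per kb) and Igfbp3 (4.35 ± 0.76) also overlapped each other, but both lay under the 6 genes above in all libraries. This order holds for merged exons only. By coding length Igfbp5 ranked 2, Igfbp2 4, Igfbp4 5, Igf2r 6 and Igfbp6 7. Pappa, at 0.42 ± 0.11 CPM per kb, and Igf2, at 0.033 ± 0.019, were apart from every other member as counted. The place of Igf2 rests on the counts left to it beside Gm49394. With the counts of both genes taken over the exon length of Igf2, the level was 0.36, 0.15, 0.27 and 0.29 CPM per kb in Control 1, Control 2, NT4 1 and NT4 2, a range that overlapped that of Pappa (0.29 to 0.54). Among 19236 tested genes with an annotated length, Igf1 ranked above 88.9% by mean level per kb, Igfbp2 above 88.2%, Pappa above 23.5% and Igf2 above 1.44%.

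The binding proteins were then considered as a group. Their summed level was 74.1 and 66.9 CPM per kb in Control 1 and Control 2 and 73.7 and 67.0 CPM per kb in NT4 1 and NT4 2, which is 2.36, 2.85, 2.39 and 2.92 times the level of Igf1 in the same libraries. This sum is of the 5 listed genes, and with Igfbp7, which alone exceeded it, the level was 184 and 150 CPM per kb in Control and 228 and 173 CPM per kb in NT4. The sum of the 5 differed more between libraries of one group than between the groups. Igfbp2 made up 36.4% ± 3.44 of the sum of the 5 (SD, n = 4 libraries) and Igfbp5 29.9% ± 1.83. Igfbp6 accounted for 14.9% and 16.4% in the Control libraries and for 21.7% and 21.5% in the NT4 libraries. The share of Igfbp4 was 10.5%, 9.20%, 5.11% and 10.9% in Control 1, Control 2, NT4 1 and NT4 2, and that of Igfbp3 averaged 6.22%. Which gene led depended on the length used, since by coding length Igfbp5 held 55.6% and Igfbp2 18.5%. The share of Igfbp6 averaged 18.6% by merged exons and 7.36% by coding length. The ratio of the sum to Igf1 also holds for merged exons only. Igf1 has 495 coding bases of 9904 merged exon bases, and by coding length the sum of the 5 lies below Igf1.

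**Figure D1:**
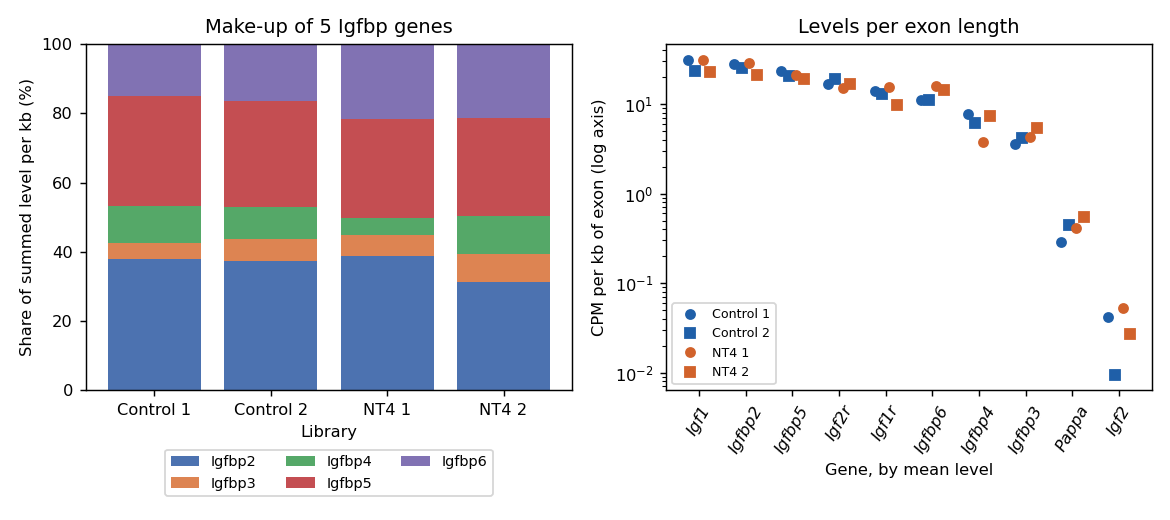
Left, share of the summed level per kb (%) of 5 binding protein genes in each library, with Igfbp6 wider in both NT4 libraries. Right, CPM per kb of merged exons on a log axis for each gene in 4 libraries (blue, Control; orange, NT4; circles, replicate 1; squares, replicate 2), ordered by mean, where Pappa and Igf2 sit apart from the other 8 genes.

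How NT-4 in the medium altered these genes was tested with edgeR's quasi-likelihood test over all 19259 genes that passed the filter on low counts, a filter that all 10 members passed. With adjusted p-values under 0.05 required, it called 0 of the 10 members, against 0% of all genes (the smallest adjusted p was 0.130), while DESeq2 called 65 of all genes and edgeR's exact test 59. DESeq2, edgeR's exact test and limma voom also called 0 of the 10. At an unadjusted p under 0.05 there was 1 member, Igfbp6, with 1.99% of all genes below that value (0 members by edgeR's exact test, where Igfbp6 had p = 0.0671), and the criterion of the study's methods (a fold over 2 or under 0.5 with such a p) was met by 0 members and 1.08% of all genes. Both NT4 libraries lay above both Control libraries for 2 members, Igfbp3 and Igfbp6 (13.4% of all genes), and below them for 1, Igf2r (12.7%). The median log2 fold change of NT4 over Control was −0.059 for the members and 0.0045 for all genes tested. Each of the 10 members had an adjusted p of 0.9999 by edgeR.

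**Figure D2:**
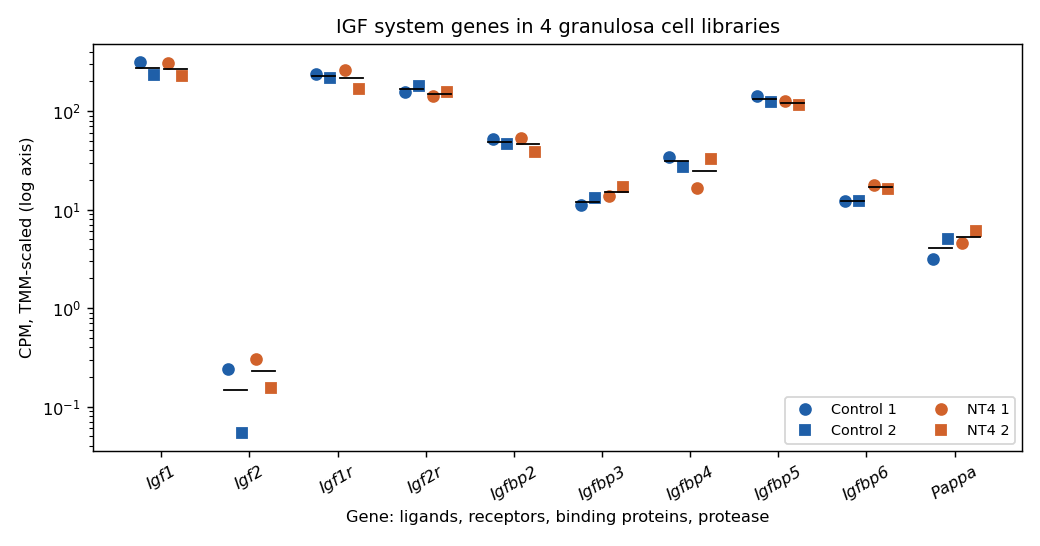
CPM (log axis) of the 10 genes in each library, ordered by role, with Control in blue, NT4 in orange, replicate 1 as circles, replicate 2 as squares and group means as bars. The groups separate upwards in Igfbp3 and Igfbp6 and downwards in Igf2r, by less than 1.5-fold each.

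Of the ligands, Igf1 reached 311 CPM in Control 1 and 232 CPM in Control 2, and 305 CPM in NT4 1 and 227 CPM in NT4 2. The libraries numbered 1 were high and those numbered 2 low in both groups, and the group means of 272 ± 55.4 and 266 ± 54.96 CPM (SD, n = 2) differed by far less than the replicates. The fold change was 0.98, with a 95% interval of 0.68 to 1.42 in edgeR's fit. Igf2, a fetal growth factor expressed from the paternal allele, had 12, 4, 19 and 12 counts in Control 1, Control 2, NT4 1 and NT4 2, or about 1 to 5 read pairs each under that assumption. Only NT4 1 was above the level that 3 read pairs set, and no direction could be read at this depth (log2 fold change 0.67, 95% interval −2.12 to 3.46). With Gm49394 added the counts were 102, 63, 96 and 126, and the groups overlapped.

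Of the receptors, Igf1r was measured at 238 and 218 CPM in the Control libraries and at 263 and 166 CPM in the NT4 libraries. The highest and the lowest library were both NT4, and the edgeR fold of 0.94 had a 95% interval of 0.62 to 1.41. The log2 fold change of −0.089 was −0.47 without NT4 1 (unadjusted p 0.0234 in edgeR's fit) and 0.20 without NT4 2. Igf2r, a gene expressed from the maternal allele in most mouse tissues, was at 157 and 179 CPM in Control and at 143 and 155 CPM in NT4. The NT4 libraries were the lower ones, though NT4 2 and Control 1 nearly met, and the fold of 0.89 (95% interval 0.71 to 1.11) came with an unadjusted p of 0.239 by edgeR. The log2 fold change of −0.17 was −0.067 without Control 2 and −0.27 without Control 1. Of the 8 liver-type genes, 5 were lower in both NT4 libraries as well, against 12.7% of all genes tested. Their sum was highest in Control 1 and no higher in Control 2 than in NT4, whereas Igf2r was highest in Control 2. The part of these genes in the Igf2r value was not tested. For both receptors the edgeR interval on all 4 libraries spanned no change, and a halving lay outside it. The ratio of Igf1r to Igf2r per kb was 0.84, 0.67, 1.02 and 0.59 in Control 1, Control 2, NT4 1 and NT4 2. Its extremes were again the NT4 libraries. The order of these receptors depended on the length used. By merged exons Igf1r ranked 5 and Igf2r 4 among the members. Their ranks were 4 and 5 by longest transcript, and 3 and 6 by coding length.

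Of the binding proteins, Igfbp6, which prefers IGF2 as its ligand, showed the clearest separation. It was at 12.3 and 12.2 CPM in Control and at 17.8 and 16.01 CPM in NT4. The Control libraries were nearly identical, closer than in all but 0.96% of tested genes, and both NT4 libraries were above them. The log2 fold change was 0.47 (SE 0.16, 95% interval 0.058 to 0.87), and edgeR gave an unadjusted p of 0.0321 with an adjusted p of 0.9999. It stayed between 0.38 and 0.54 when each library was left out, but the unadjusted p in edgeR's fit was then 0.155 with Control 1 left out, 0.150 with Control 2, 0.110 with NT4 1 and 0.0398 with NT4 2. Igfbp3, the main carrier of IGF in blood, was at 11.1 and 12.96 CPM in Control and 13.6 and 16.8 CPM in NT4. Both NT4 libraries were higher, but NT4 1 and Control 2 were close, and the log2 fold change of 0.34 (SE 0.20) had an unadjusted p of 0.141 in edgeR's test. It was 0.17 without NT4 2, 0.23 without Control 1 and 0.48 without NT4 1.

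Of the 10 theca and stroma markers, 9 were higher in the same libraries as Igfbp3 and Igfbp6, against 13.4% of all genes tested. The exception was Insl3, at 5.54 and 14.3 CPM in Control and at 9.58 and 16.5 CPM in NT4. Lum, which encodes the matrix proteoglycan lumican, measured 14.0 and 10.2 CPM in the Control libraries and 21.8 and 16.1 CPM in the NT4 libraries. Dcn, for decorin, measured 52.6 and 47.6 CPM in the former and 64.2 and 67.1 CPM in the latter. Cyp17a1, the androgen-producing enzyme of theca cells, was at 72.2 and 134 CPM in Control and at 134 and 173 CPM in NT4, with Control 2 and NT4 1 nearly equal. As the summed levels above show, the list as a whole had the same order of groups. The part of these markers in the values of Igfbp3 and Igfbp6 was not tested.

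Igfbp2, Igfbp4 and Igfbp5 did not separate the groups. Igfbp2 was at 51.8 and 46.3 CPM in Control and at 53.0 and 38.7 CPM in NT4, so that the NT4 libraries enclosed both Control libraries (fold 0.94, 95% interval 0.67 to 1.31 in edgeR's fit). Igfbp5, the highest of these 5 binding proteins in CPM, was at 143, 124, 126 and 114 CPM in Control 1, Control 2, NT4 1 and NT4 2. Its edgeR fold of 0.90 had a 95% interval of 0.71 to 1.14, and the log2 fold change of −0.15 was −0.048 without Control 1 and −0.25 without Control 2. Igfbp4, an inhibitor of IGF action and a substrate of PAPP-A, was the least even among replicates. It was at 34.3 and 27.2 CPM in Control, 16.7 CPM in NT4 1 and 32.3 CPM in NT4 2, and the gap between the NT4 libraries (0.96 on the log2 scale) was wider than in 84.7% of tested genes. Its log2 fold change of −0.33 (SE 0.34) rested on NT4 1, being 0.066 without that library and −0.89 without NT4 2 (unadjusted p 0.0137 in edgeR's fit).

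Pappa was the lowest member apart from Igf2, at 3.15 and 4.98 CPM in Control and 4.57 and 5.99 CPM in NT4. These are 158, 367, 285 and 462 counts. The groups overlapped, and the log2 fold change of 0.38 (SE 0.32, 95% interval −0.42 to 1.18) had an unadjusted p of 0.286 in edgeR's test. It rested on Control 1 and NT4 2, being 0.081 without Control 1 and 0.17 without NT4 2. It was 0.75 without Control 2 and 0.55 without NT4 1.

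**Figure D3:**
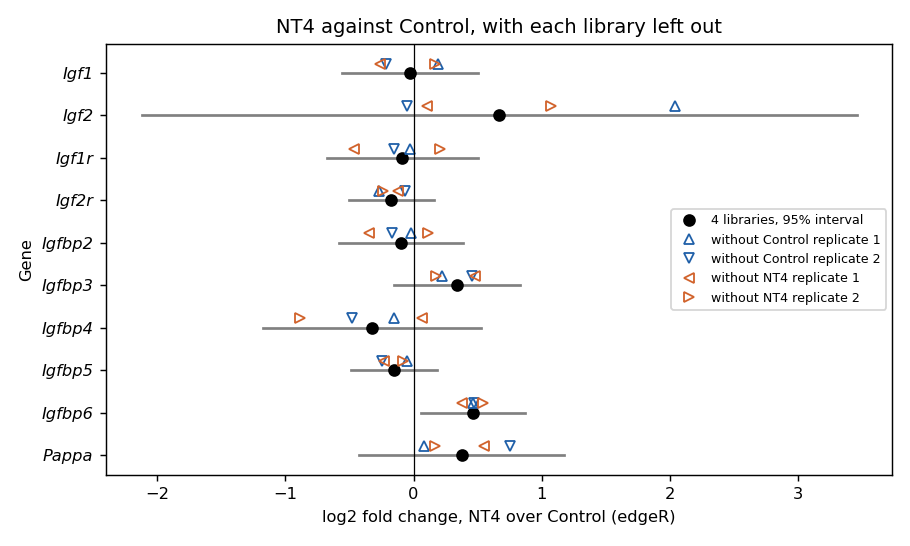
log2 fold change of NT4 over Control from edgeR with its 95% interval (black) and the same value with each library left out (open triangles). Igfbp6 is the 1 gene whose interval lies above 0 (0.058 to 0.87), and Igf1, Igf2, Igf1r, Igfbp2 and Igfbp4 change sign when a library is left out.

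Several members followed the replicate number more closely than the group. Both libraries numbered 1 were higher than both numbered 2 in 5 of the 10 members (Igf1, Igf2, Igf1r, Igfbp2 and Igfbp5), and the reverse held for Pappa. For Igf2 this rests on at most 19 counts and was not so with Gm49394 added, when NT4 2 (1.63 CPM) was above NT4 1 (1.54 CPM). Over all tested genes these shares were 24.3% and 24.8%. For Igf1 the mean of the libraries numbered 1 was 308 CPM and that of the others 230 CPM, a log2 difference of 0.42 against −0.029 between the groups. The GC markers followed the number too. Of these 10 genes, 9 were higher in both libraries numbered 2, and their sum was 13386 and 11656 CPM in Control 1 and NT4 1 against 16731 and 18597 CPM in Control 2 and NT4 2. Cyp19a1, the aromatase that FSH raises as follicles mature, was at 39.7 and 36.6 CPM in the libraries numbered 1 and at 65.5 and 87.0 CPM in those numbered 2. The exception was Amh, a product of small growing follicles, at 299 and 391 CPM in the libraries numbered 1 and 151 and 91.5 CPM in the others. The labels do not say what a number stands for, and the part of such differences in the IGF values was not tested.

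**Figure D4:**
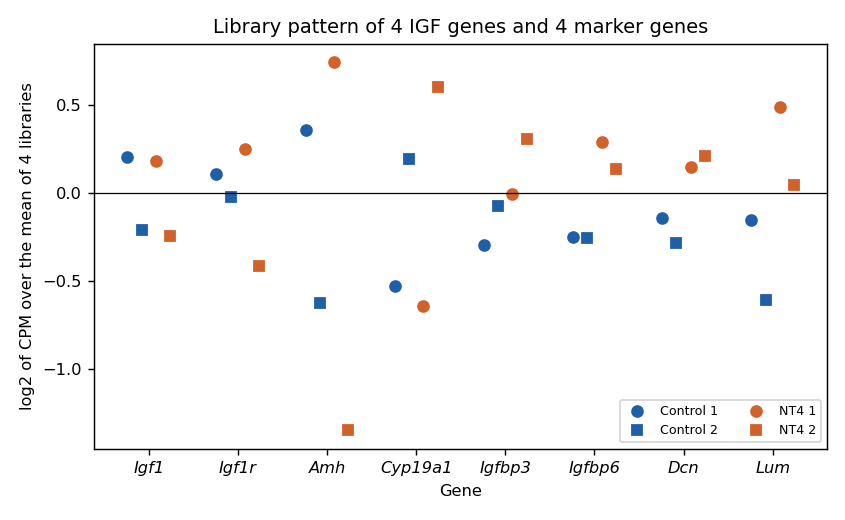
log2 of each library's CPM over the mean of the 4 libraries for 4 IGF genes, 2 of the 10 GC markers (Amh, Cyp19a1) and 2 stroma markers (Dcn, Lum), with Control in blue, NT4 in orange, replicate 1 as circles and replicate 2 as squares. Igf1, Igf1r and Amh are higher in the circles and Cyp19a1 in the squares, whereas Igfbp3, Igfbp6, Dcn and Lum are higher in both orange points.

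A further 32 genes of the pathway, covering other binding proteins, proteases and their inhibitors, receptors, adaptors and mRNA-binding proteins, were listed beside the members. Of these, 26 passed the filter, 13 with a fold above and 13 below 1, and edgeR called 0 of them at an adjusted threshold of 0.05, nor did any have an unadjusted p under 0.05, although 3 had one without Control 1, 4 without NT4 2, 1 with no filter (Grb10, p 0.0493) and 1 with overlapping genes summed. Igflr1, listed at 0 counts, has 99.8% of its exon bases within Gm49396 on the same strand. Gm49396, singled out after its values were seen, had 302 and 685 counts in Control and 158 and 77 in NT4 (log2 fold change −2.12, unadjusted p 0.0076, adjusted p 0.9999 in edgeR's test), and to which gene these reads belong was not tested. Their median log2 fold change was −0.0013. The NT4 libraries lay above the Control libraries in 6 of the 26 genes (13.4% of all genes tested) and below them in 6 (12.7%).

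Igfbp7, a relative that binds IGF weakly, was at 133 and 100 CPM in Control and 187 and 129 CPM in NT4. The groups overlapped. Its exons share 85 bases with Polr2b on the opposite strand. Igfbp1 was near the limit of detection at 0.43 to 0.90 CPM, and Igfals, the partner of IGFBP3 in blood, had 27 counts in the 4 libraries together. The stanniocalcins inhibit PAPP-A. Stc2 was at 15.8 and 10.3 CPM in Control and at 17.0 and 19.3 CPM in NT4, higher in both NT4 libraries (log2 fold change 0.47, SE 0.25, unadjusted p 0.108 in edgeR's test), with a log2 fold change of 0.21 without Control 2 and 0.80 without Control 1. Stc1 was at 49.2, 21.4, 58.4 and 29.6 CPM in Control 1, Control 2, NT4 1 and NT4 2, again high in the libraries numbered 1, and its groups overlapped. Pappa2, the relative of Pappa, had 8, 22, 0 and 21 counts in the same order.

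Insr, the insulin receptor of the cell surface, was at 73.5 and 91.8 CPM in Control and at 69.4 and 64.1 CPM in NT4, lower in both NT4 libraries (log2 fold change −0.31, SE 0.15, unadjusted p 0.0971 in edgeR's test). Grb10, an imprinted adaptor that restrains the insulin and IGF1 receptors, was at 56.5 and 47.4 CPM in Control and at 79.0 and 59.7 CPM in NT4 (log2 fold change 0.42, SE 0.19, unadjusted p 0.0735 in edgeR's test). Neither gene's groups overlapped, by small margins. The log2 fold change of Insr was −0.13 without Control 2 and −0.46 without Control 1, and that of Grb10 was 0.19 without NT4 1 and 0.60 without NT4 2. The docking proteins Irs1 (143 to 180 CPM) and Irs2 (82.3 to 161 CPM) overlapped between groups, and Irs2 was higher in the libraries numbered 1.

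**Figure D5:**
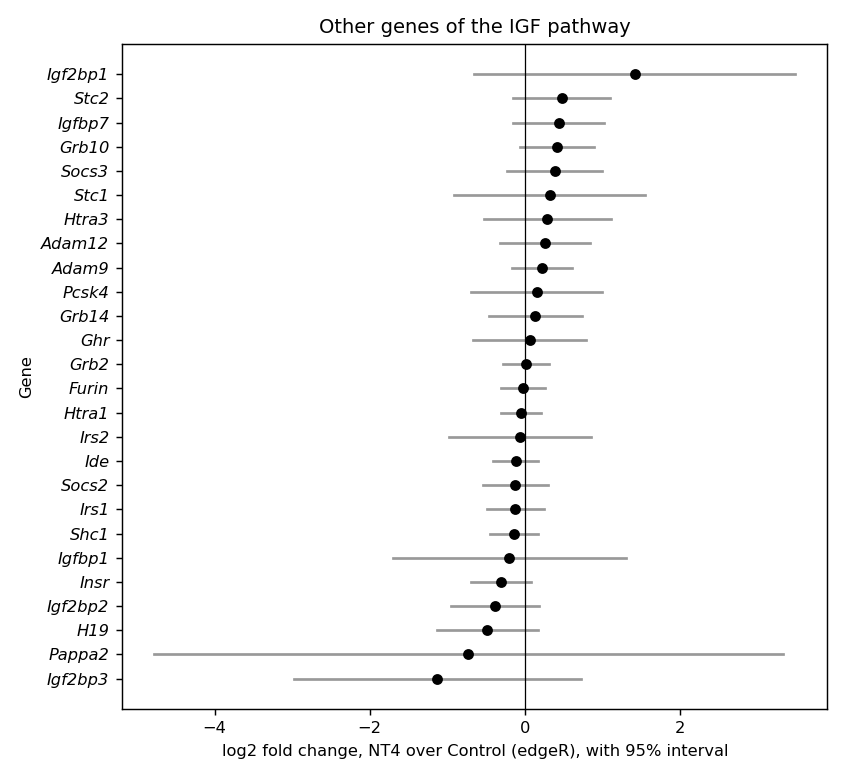
log2 fold change of NT4 over Control with its 95% interval (edgeR) for the 26 other pathway genes that were tested. All intervals include 0, and the widest belong to Pappa2, Igf2bp1 and Igf2bp3, which have few counts.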

How the data were processed

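GCs of 4 libraries (2 NT4, 2 Control, grouped by title) were measured by RNA sequencing. By their methods the authors trimmed reads with Cutadapt, mapped them with HISAT2 to the mouse genome (Ensembl v99; mm10 in the submitters' notes) and estimated expression with StringTie. The deposited values are expected counts per gene, whole numbers that were not normalized. Between 45.4% and 46.2% of the low counts (1 to 12) were multiples of 4, from which 4 counts per read pair were assumed, and strand use in counting is not given in the sources used here. Files of single libraries equalled the series table in 4 of 4 libraries. Positions and lengths came from GENCODE M21 (GRCm38) and upstream windows from RefSeq.

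Counts were tested in R 4.3.3 with edgeR 4.0.16 (quasi-likelihood, TMM, default filter, group alone, Benjamini-Hochberg over 19259 genes, two-sided), after a check on simulated data. SE is the size of the log2 fold change over the root of F, on the log2 scale. With 2 against 2 libraries an exact permutation test cannot go below 0.333, so p-values rest on the spread edgeR pools across genes. Alternatives used DESeq2 1.42.0, limma 3.58.1, other scalings, filters and lengths. Named were all members, 10 pathway genes fixed by name, any other with an unadjusted p under 0.05 in the fit on all libraries, and defining markers. The members, lists and tests were chosen with earlier results of these data known.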

Additional observations from a re-analysis of the deposited data

How the results depend on the processing

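Members were called 0 times under all 16 alternatives, as were the other pathway genes. In fits on all 4 libraries every member kept its direction (108 values), with Igf2 at 0.14 when summed with Gm49394 and 0.98 in limma voom. Igf2 could not be tested with counts divided by 4 or the filter at a CPM of 1. Leaving out a library reversed 6 of 40 member values, and log2 fold changes ranged from −0.26 to 0.19 for Igf1, −0.055 to 2.04 for Igf2, −0.47 to 0.20 for Igf1r, −0.35 to 0.11 for Igfbp2 and −0.89 to 0.066 for Igfbp4. Of the pathway genes, Igfbp1 ranged from −0.64 to 0.40, Irs1 from −0.28 to 0.012, Irs2 from −0.63 to 0.34, Stc1 from −0.26 to 1.04 and Pappa2 from −6.85 to 0.23. Such fits take the single library left in an arm to have the spread of the opposite arm. Over all genes the count at an adjusted p of 0.05 was 0, but 65 in DESeq2, 59 by the exact test of edgeR, 10 when no filter was applied, and 0 to 37 with a library left out (12 without Control 1, 37 without Control 2). The cause was not tested. Members with an unadjusted p under 0.05 numbered 1, but 0 by the exact test of edgeR. Pathway genes numbered 0, but 1 with no filter and 1 with overlapping genes summed. Over all genes there were 383, but 535 with no filter, 261 with the filter at a CPM of 1 and 295 with counts divided by 4. The share of Igfbp2 in the binding protein level, 36.4%, was 43.4% by longest transcript and 18.5% by coding length, and 4 of 10 members kept their rank by coding length, Igf1 and Igf2 among them.

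The labels number the replicates alike in both groups without stating a pairing; by the study's methods the groups were run side by side, with no word on what a number marks. Differences between replicates correlated across genes at r = 0.178 (Spearman 0.304). With the replicate number as a block, 0 members, 0 pathway genes and 0 of all genes passed an adjusted p of 0.05, 4 pathway genes against 0 without the block had an unadjusted p under 0.05 (among them Igfbp7 at 0.00959, Grb10 at 0.0127 and Stc1 at 0.0374), and 580 genes had an unadjusted p under 0.05 against 383 without it. Depth limits Igf2, Pappa2 and Igfals, which are near 3 read pairs per library at the assumed 4 counts per pair.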
